A study of Homo sapiens with 23 samples.

Results

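The keratins are the intermediate filament proteins of epithelial cells. A keratin filament is built from pairs of an acidic type I and a basic type II chain, so that each keratin needs a partner of the other type, and the partners chosen differ between epithelia and change as cells differentiate, migrate or heal. In the mammary gland KRT5 and KRT14 mark the basal layer and KRT8, KRT18 and KRT19 the luminal layer, and cultured mammary epithelial cells often hold keratins of both. Of the 19775 genes measured, 44 were keratins, defined as genes with a probe set assigned to 1 gene only, whose symbol is KRT with a number. They had 56 of the 54675 probe sets, and a gene with several was represented by the probe set of highest mean log2 signal. The type I keratins numbered 24 and the type II keratins 20. On the GRCh38.p14 assembly, 23 lie on chromosome 17 between 40654665 and 41612767, and 21 on chromosome 12 between 52168996 and 52952906, among them KRT18, a type I gene beside its type II partner KRT8.

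The cells were MCF10A-ER-Src, a line of non-transformed human mammary epithelial cells that carries a fusion of Src kinase with the hormone-binding part of the estrogen receptor, in which tamoxifen (TAM, at 1 µM) turns Src on. They received 25 nM of an siRNA pool against STAT3 (siSTAT3) or of a non-targeting pool (siSCM, named siNEG in the labels), grew for 48 h, and were then given ethanol (EtOH, the vehicle) or TAM for 4 h or 24 h. This made 8 groups of 3 arrays, with 2 arrays, replicates 2 and 3, for siSTAT3 with TAM at 24 h, where replicate 1 was not analysed here, and all groups share the same fusion line and culture medium. The methods call the arrays biological replicates, but no label ties them to separate cultures, so p-values measure the spread between these arrays. Values are MAS5 signals in arbitrary linear units, and differences are log2 ratios from 1 limma fit over all arrays, called at an adjusted p under 0.05 over all probe sets. STAT3 itself had 331 to 425 units as a group mean in siSTAT3 cells and 4022 to 6119 in siSCM cells. Median signals of the 23 arrays lay between 73.5 and 85.3 units, and 3′ to 5′ ratios between 1.21 and 1.44 for ACTB and between 0.910 and 1.03 for GAPDH.

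The labelled cell type was checked by marker lists. All 5 epithelial markers measured of 7 listed (EPCAM, CDH1, ITGB4, LAMB3 and SFN) exceeded 100 units, with summed signals of 41082 to 71710 units per array. Of the luminal list 3 of 4 reached 100 units, with sums of 1376 to 2325. Of 3 immune markers measured, CD14 did, with sums of 460.1 to 1040 for the list, and of 3 endothelial markers PECAM1 did, with sums of 160.4 to 481, while none of 3 melanocyte markers did, with sums of 76.5 to 204. Of 6 fibroblast markers COL1A1 and DCN reached 100 units, whereas COL1A2, COL3A1, LUM and PDGFRB stayed below it in every group. The fibroblast sum was 5681 to 5941 units in siSCM EtOH at 24 h and 6800 to 7846 in siSCM TAM at 24 h. In siSTAT3 cells at 24 h it was 3099 to 3115 with EtOH and 2900 to 2946 with TAM. It was thus higher with TAM in siSCM cells and lower with TAM in siSTAT3 cells, without overlap. DCN made up most of it, with means of 5212 ± 96.2 and 6858 ± 481 units in siSCM EtOH and TAM at 24 h and 2251 ± 32.3 and 1870.1 ± 56.5 in siSTAT3, whereas COL1A1 arrays ran from 464 to 515 and 418 to 456 in siSCM and from 732 to 776 and 936 to 939 in siSTAT3. SFN made up the largest share of the epithelial sum, and single markers differed within it (SD, n = 3, and n = 2 for siSTAT3 TAM). CDH1, the cadherin of epithelial junctions, had 6861 ± 660.2 units with EtOH and 3082 ± 389 with TAM at 24 h in siSCM cells, and 9291 ± 144 and 11389 ± 848 in siSTAT3 cells. EPCAM had 8868 ± 352 and 5723 ± 232 in siSCM and 9039.5 ± 79.3 and 7874 ± 32.9 in siSTAT3 cells, and LAMB3 3643 ± 300.0 and 8828 ± 722 in siSCM and 5514 ± 145 and 10789 ± 819.8 in siSTAT3 cells. PECAM1 had 422 ± 36.2 and 190.3 ± 6.64 in siSCM and 306 ± 46.2 and 312 ± 5.35 in siSTAT3 cells. In siSCM cells at 24 h the luminal sum was 1680 to 1874 units with EtOH and 1376 to 1526 with TAM. In siSTAT3 cells it was 1994 to 2325 and 1607 to 2196, overlapping. CD14 had 845 ± 73.3 and 720 ± 15.9 in siSCM and 595 ± 21.2 and 551 ± 54.8 in siSTAT3 cells. Signals of epithelial, luminal, fibroblast, immune and endothelial markers thus differed between EtOH and TAM at 24 h in siSCM cells. LAMB3, EPCAM, CDH1, ITGB4, COL1A1, DCN and the luminal marker FOXA1 also differed in siSTAT3 cells, without overlap between EtOH and TAM arrays. The part of these markers in the keratin differences was not tested. In bulk RNA, fewer cells that express a keratin and less keratin RNA per cell cannot be told apart.

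The basal and simple epithelial keratins made up 6 of the 13 keratins with clear signal. At a limit of 100 units, 13 keratins reached it in at least 1 group and 31 did not in any. All 3 basal layer keratins (KRT5, KRT14 and KRT15) reached it, as did 3 of 5 simple epithelial keratins (KRT7, KRT8 and KRT18). So did KRT16, the only member measured of 5 wound and stress keratins, 2 of 7 keratins of the differentiating epidermis (KRT10 and KRT80), 2 of 7 of mucosa and cornea (KRT13 and KRT23), 1 of 8 measured of the hair root sheath (KRT75), none of 12 measured of the hair shaft, and KRT222, a keratin-like gene outside these lists. Below 100 units in every group were KRT1, KRT2, KRT3, KRT4, KRT9, KRT12, KRT19, KRT20, KRT24, KRT25, KRT27, KRT31, KRT32, KRT33A, KRT33B, KRT35, KRT36, KRT37, KRT38, KRT40, KRT71, KRT72, KRT73, KRT74, KRT76, KRT77, KRT78, KRT79, KRT83, KRT84 and KRT85. The highest group mean among them was 92.9 units, for KRT9, and no comparison called any of them. The luminal keratin KRT19 was among these, with group means from 2.55 to 20.5 units. KRT6A, KRT6B and KRT6C, the type II partners of KRT16, had no probe set assigned to them alone in the annotation used and so are not among the 44, and the same holds for KRT17, KRT26, KRT28, KRT34, KRT39, KRT81, KRT82 and KRT86.

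**Figure D1:**
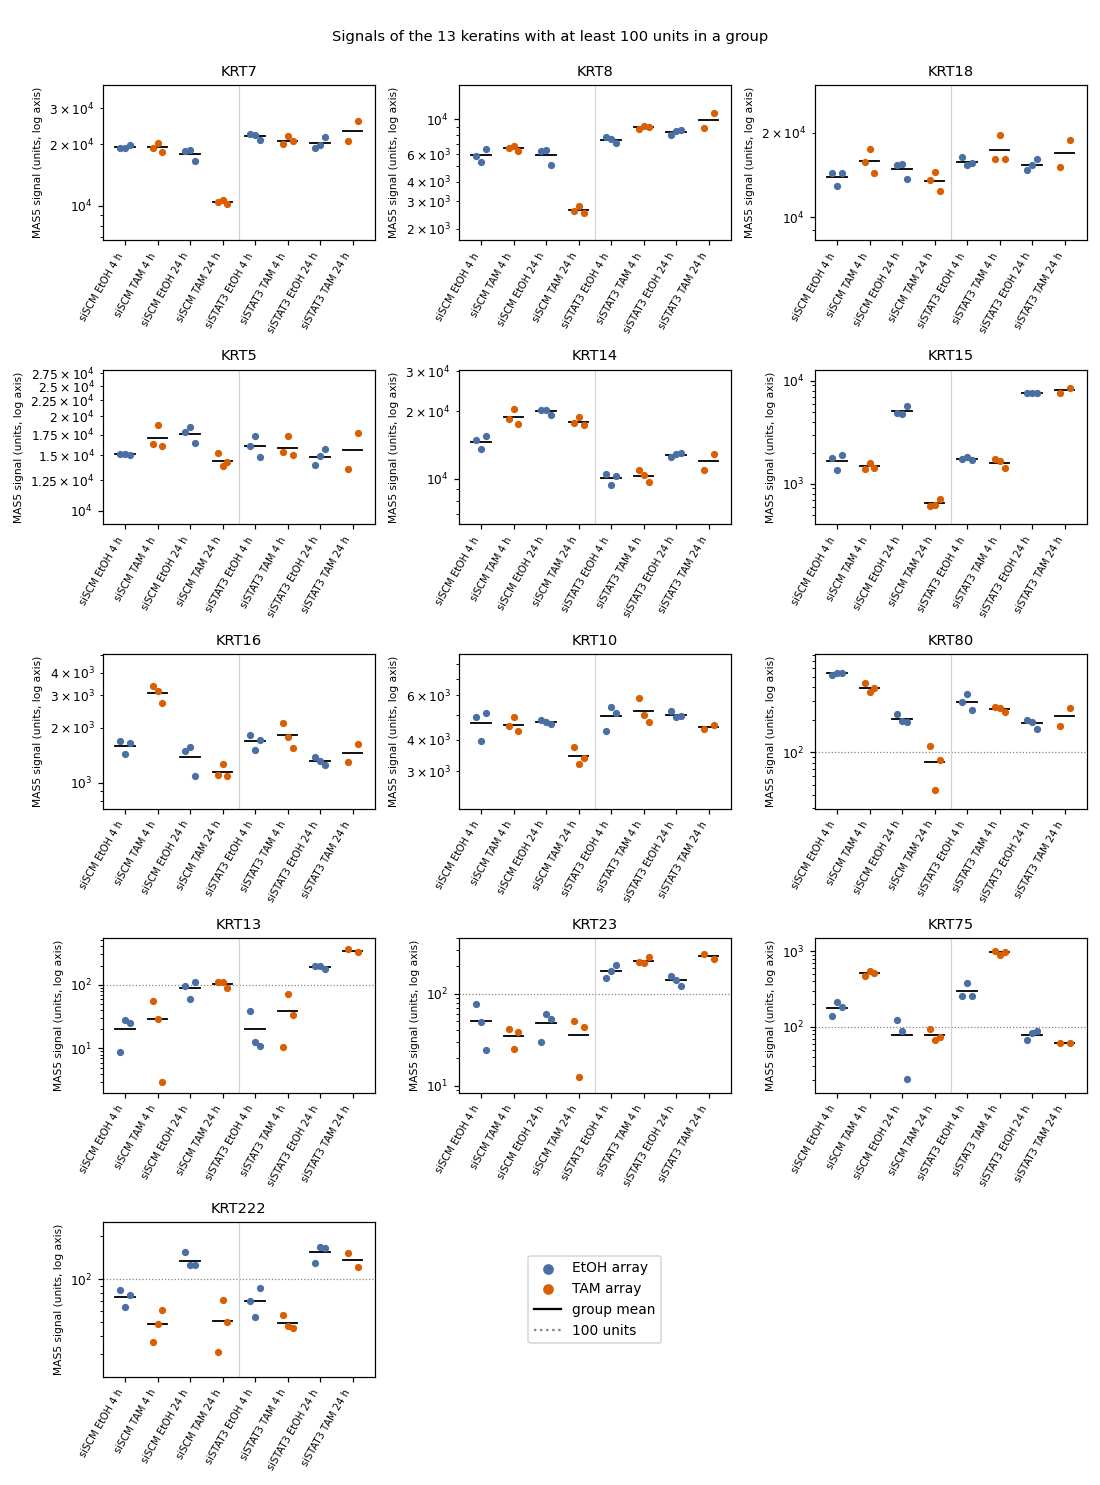
Signal of the 13 keratins that reached 100 units in a group, on every array. Each panel is 1 keratin, the vertical axis is the MAS5 signal in units on a log scale, the 8 groups run along the horizontal axis, points are arrays (blue for EtOH, orange for TAM), black bars are group means and the dotted line marks 100 units. KRT15 falls from 5109 to 647 units with TAM at 24 h in siSCM cells and stands at 7587 and 8094 units in siSTAT3 cells, and KRT7, KRT8 and KRT80 show the same split on a smaller scale.

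RefSeq promoters on GRCh38.p14 were at hand for 29 of the 44 keratins and for 4 of the 13 above 100 units (KRT5, KRT8, KRT10 and KRT75). The 250 bases upstream of the start site in that table are shown for KRT8 and KRT10, which fell together with TAM at 24 h, and for KRT5, a basal keratin that was not called. All 3 genes are on the minus strand, and the windows are chr12:52926470-52926719 for KRT8, chr17:40822615-40822864 for KRT10 and chr12:52520395-52520644 for KRT5. The KRT8 window precedes the start of the transcript that the promoter table uses, which lies inside the gene's full span of 52897191 to 52949860. Capitals mark TATAAA on either strand.
KRT8: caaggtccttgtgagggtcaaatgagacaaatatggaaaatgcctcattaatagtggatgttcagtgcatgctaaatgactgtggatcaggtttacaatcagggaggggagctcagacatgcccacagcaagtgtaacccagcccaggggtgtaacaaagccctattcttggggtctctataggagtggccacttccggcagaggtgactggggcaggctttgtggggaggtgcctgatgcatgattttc
KRT10: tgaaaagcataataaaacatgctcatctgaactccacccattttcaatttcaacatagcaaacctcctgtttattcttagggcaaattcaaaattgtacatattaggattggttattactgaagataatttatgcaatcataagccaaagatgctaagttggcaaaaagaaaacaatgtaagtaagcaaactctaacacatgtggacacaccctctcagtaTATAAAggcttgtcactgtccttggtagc
KRT5: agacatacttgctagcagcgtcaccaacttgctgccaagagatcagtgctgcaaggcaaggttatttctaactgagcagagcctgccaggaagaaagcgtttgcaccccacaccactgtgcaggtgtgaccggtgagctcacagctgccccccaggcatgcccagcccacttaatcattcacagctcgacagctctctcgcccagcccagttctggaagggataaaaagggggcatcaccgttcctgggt
The letters TATAAA stood in the KRT10 window and in 15 of the 29 keratin windows, against 10.7% of 35116 windows of the same length over all genes. The STAT motif TTCNNNGAA stood in 2 keratin windows, those of KRT24 and KRT38, against 6.57% of all windows, and the AP-1 motif TGANTCA in 0 of 29, against 6.57%. None of the 3 motifs was in the KRT5, KRT8 or KRT75 window. A letter match is a description of the window, and its absence says nothing of distant sites.

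TAM for 24 h lowered 6 of the 44 keratins in siSCM cells and raised none of them. These were KRT15 of the basal layer, KRT7 and KRT8 of simple epithelia, KRT10 and KRT80 of the differentiating epidermis, and KRT222. They were 13.6% of the 44 keratins, while 9.31% of all genes were called lower and 6.06% higher in this comparison. At an unadjusted p under 0.05, 7 keratins were lower and 1 higher in the limma fit. The share of all genes at this unadjusted limit was not computed, here or for the unadjusted counts below. Those counts therefore cannot be set against the shares of all genes, which are at an adjusted p. The median log2 difference was -0.26 over the 44 keratins and -0.04 over all genes, and 11 of the 13 keratins above 100 units were below 0. KRT13 and KRT75 were the other 2. The share below 0 among all genes above 100 units was not computed, and more of all genes were called lower than higher.

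KRT15, a type I keratin of the basal layer and of hair follicle stem cells, had the largest difference of the 6. Its siSCM EtOH arrays at 24 h read 4819.7, 4789 and 5719 units and its TAM arrays 604, 623 and 715. The TAM arrays lay below all EtOH arrays at 24 h and also below the 3 siSCM EtOH arrays at 4 h, which read 1761, 1366 and 1902. The means of 5109 ± 528 and 647 ± 59.8 (SD, n = 3) differed by a log2 ratio of -2.98 (SE 0.12, adjusted p = 4.30e-11), or 7.89-fold.

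KRT8, the type II keratin of simple epithelia, read 6307, 6356 and 5140.0 units with EtOH and 2593, 2789 and 2528 with TAM in siSCM cells at 24 h. The groups did not overlap, and the means of 5934 ± 688 and 2637 ± 136 (SD, n = 3) differed by a log2 ratio of -1.16 (SE 0.10, adjusted p = 3.97e-07). Its type I partner KRT18 had 14834 ± 1009.6 and 13468 ± 1028 units, the arrays overlapped, and the log2 difference was -0.14 (95% interval -0.37 to 0.09, adjusted p = 0.531). The interval of KRT18 lay wholly above that of KRT8, which was -1.38 to -0.95, and the difference between both partners was not tested directly.

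KRT7, a type II keratin of ducts and glands, read 18494, 18826 and 16569 units with EtOH and 10406, 10633 and 10165 with TAM. All TAM arrays were lower, and the means of 17963 ± 1219 and 10402 ± 234 (SD, n = 3) differed by a log2 ratio of -0.79 (SE 0.09, adjusted p = 5.57e-06). KRT7 has 3 further probe sets, all of low signal, with log2 differences of -0.70, -0.92 and -1.13 that did not pass the test. KRT8, KRT10, KRT13, KRT18 and KRT23 are read only by probe sets whose names end in _x_at or _s_at, and the main KRT7 probe set ends in _s_at, endings that mark probes able to match other transcripts or sequences.

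KRT10, a type I keratin of suprabasal epidermis, read 4806, 4699 and 4636 units with EtOH and 3725, 3187 and 3378 with TAM in siSCM cells at 24 h. All TAM arrays were lower, and the means of 4714 ± 85.9 and 3430.1 ± 273 (SD, n = 3) differed by a log2 ratio of -0.46 (SE 0.11, adjusted p = 0.0103). Its 3 probe sets were all called lower, with log2 differences of -0.65, -0.46 and -0.38. Without siSCM TAM 24 h replicate 2 the adjusted p of KRT10 was 0.0521. KRT1, its usual type II partner, stayed below 100 units in every group.

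KRT80, a type II keratin of differentiating epithelia, read 224, 196 and 191 units with EtOH and 114, 44.8 and 83.9 with TAM. The group means of 204 ± 17.6 and 80.8 ± 34.6 (SD, n = 3) differed by a log2 ratio of -1.43 (SE 0.24, adjusted p = 0.000511), and the groups did not overlap although the TAM arrays were spread widely. KRT222, whose protein resembles type I keratins, read 153, 125 and 126 units with EtOH and 31.4, 71.9 and 50.1 with TAM, again without overlap. Its means of 134 ± 16.1 and 51.1 ± 20.3 (SD, n = 3) differed by a log2 ratio of -1.47 (SE 0.25, adjusted p = 0.000727), and its other probe set by -0.66 (SE 0.16, adjusted p = 0.00844). Both genes were near the 100-unit limit, where a small change in signal gives a large log2 value.

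The other keratins above 100 units were not called at 24 h in siSCM cells. The basal partners KRT5 and KRT14 had log2 differences of -0.28 (95% interval -0.50 to -0.06, adjusted p = 0.0996) and -0.15 (95% interval -0.33 to 0.03, adjusted p = 0.345). For KRT5 the TAM arrays, 15224, 13855 and 14281 units, did not overlap with the EtOH arrays, 17805, 18495 and 16391. KRT16 differed by -0.25 (95% interval -0.57 to 0.07, adjusted p = 0.367), KRT23 by -0.60 (95% interval -1.57 to 0.37, adjusted p = 0.518), KRT13 by 0.27 (95% interval -1.55 to 2.09, adjusted p = 0.912) and KRT75 by 0.36 (95% interval -0.56 to 1.28, adjusted p = 0.724). For the last 3 the intervals hold both 0 and a 2-fold change.

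In siSTAT3 cells TAM for 24 h called no keratin in either direction, while 2.00% of all genes were called higher and 0.748% lower. Among the 13 keratins above 100 units in a group, the TAM arrays lay above all EtOH arrays for KRT8, KRT13 and KRT23. They lay below all EtOH arrays for KRT10 and KRT75. KRT13 had 191 ± 11.6 units with EtOH and 342 ± 28.4 with TAM (SD, n = 3 and n = 2). KRT23 had 139.8 ± 18.4 and 254 ± 22.4, and KRT10 had 5015 ± 153 and 4474 ± 117. The share of all genes without overlap was not computed. Counting an unadjusted p under 0.05, 3 keratins were higher and 2 lower. The median log2 difference was 0.14 over the keratins and -0.01 over all genes. The comparison rests on 2 TAM arrays. Of the 13 keratins above 100 units, 9 were higher on replicate 3 than on replicate 2, and both had an ACTB 3′ to 5′ ratio of 1.21, at the low end of the arrays, whose part in the result was not tested.

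The interaction, obtained by subtracting the siSCM effect of TAM from its siSTAT3 effect, was above 0 at 24 h for 4 keratins, KRT7, KRT8, KRT15 and KRT80, and below 0 for none. These were 9.09% of the keratins, and over all genes 3.42% were called above 0 and 2.49% below it. Before adjustment, at p under 0.05, 8 keratins were above 0 and 1 below, and the median was 0.37 over the keratins and 0.03 over all genes. This contrast uses the same siSCM arrays as the TAM comparison above, so the values are given side by side and not as separate evidence.

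KRT15 read 7535, 7669 and 7556 units in siSTAT3 cells with EtOH and 7615 and 8572 with TAM at 24 h. The groups overlapped and differed by 0.09 (95% interval -0.20 to 0.38, adjusted p = 0.881), against -2.98 in siSCM cells, an interaction of 3.07 (SE 0.18, adjusted p = 3.41e-08). KRT8 read 7884, 8471 and 8508 with EtOH and 8835 and 11004 with TAM, both TAM arrays above the EtOH arrays, with a difference of 0.25 (95% interval 0.01 to 0.49, adjusted p = 0.378), and the interaction stood at 1.42 (SE 0.15, adjusted p = 1.80e-05). KRT7 read 19241, 19836 and 21650.5 with EtOH and 20754 and 25869.6 with TAM, overlapping, with a difference of 0.20 (95% interval -0.01 to 0.40, adjusted p = 0.433), and the interaction stood at 0.98 (SE 0.13, adjusted p = 0.000144). The interaction of KRT7, KRT8 and KRT15 passed with either of the 2 TAM arrays left out.

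KRT80 read 201, 190.5 and 163 units with EtOH and 176 and 255 with TAM in siSTAT3 cells at 24 h. The groups overlapped, and the interaction was 1.64 (SE 0.36, adjusted p = 0.0130). It was 1.37 with an adjusted p of 0.109 without siSTAT3 TAM 24 h replicate 3. For KRT10 the siSTAT3 arrays read 5189, 4904 and 4950.1 with EtOH and 4391 and 4557 with TAM. The TAM arrays lay below all EtOH arrays, the direction seen in siSCM cells. The KRT10 interaction of 0.30 (95% interval -0.05 to 0.65, adjusted p = 0.459) was not called. For KRT222 the siSTAT3 arrays read 129.8, 166 and 164 with EtOH and 152 and 121 with TAM, overlapping. Its interaction of 1.30 (95% interval 0.49 to 2.11, adjusted p = 0.0739) was not called either. The TAM effect thus differed by siRNA for 4 of the 6 keratins that fell. For KRT10 the interval holds 0, and for KRT222 it lies above 0 but the adjusted p misses the threshold.

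**Figure D2:**
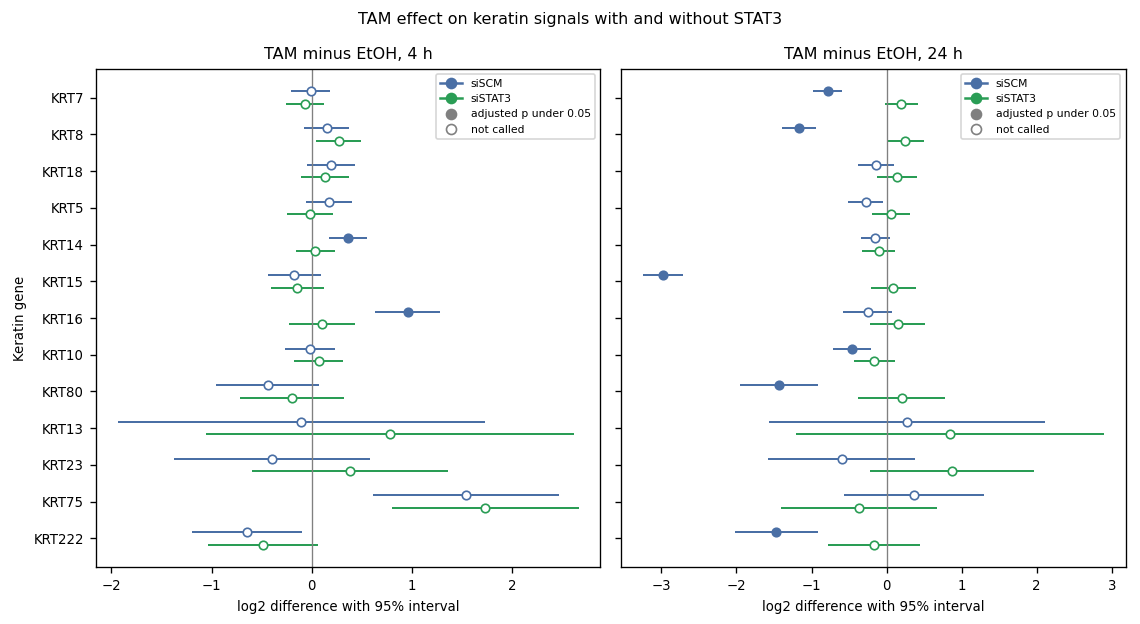
Effect of TAM on the 13 keratins above 100 units, at 4 h (one panel) and 24 h (the other). The horizontal axis is the log2 difference of TAM minus EtOH, bars are 95% intervals from the limma fit, siSCM cells are blue and siSTAT3 cells green, and filled points have an adjusted p under 0.05. At 24 h the 6 filled points are all siSCM and lie between -0.46 and -2.98, and at 4 h the 2 filled points, KRT14 at 0.36 and KRT16 at 0.95, are siSCM as well.

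At 4 h of TAM, 2 keratins were called higher in siSCM cells, KRT14 and KRT16, and none was called lower. This was 4.55% of the keratins, beside 1.67% of all genes called higher and 1.58% called lower. At an unadjusted p under 0.05, 3 keratins were higher and 3 lower, and the median was 0.06 over the keratins and -0.06 over all genes.

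KRT16, a type I keratin that appears in wounded and fast-dividing epidermis, read 1695, 1439.8 and 1646 units with EtOH and 3380.2, 3157 and 2738 with TAM in siSCM cells at 4 h. Every TAM array was above every EtOH array, and the means of 1594 ± 135 and 3092 ± 326 (SD, n = 3) differed by a log2 ratio of 0.95 (SE 0.15, adjusted p = 0.00134), or 1.94-fold. At 24 h the TAM arrays read 1098, 1259.6 and 1095 and the EtOH arrays 1500.0, 1577 and 1085, and these overlapped. In siSTAT3 cells at 4 h the EtOH arrays read 1831, 1508 and 1717 and the TAM arrays 2127, 1769 and 1547, also overlapping. The TAM difference there was 0.10 (95% interval -0.22 to 0.42, adjusted p = 0.926), and the interaction of -0.86 (95% interval -1.31 to -0.41, adjusted p = 0.131) did not pass. It passed, with KRT16 the 1 keratin called below 0, when probe sets under 100 units in all groups were left out and when limma used a variance trend with a robust prior.

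KRT14, the type I keratin of the basal layer, read 14936, 13533 and 15453 units with EtOH and 18481, 20389.9 and 17551 with TAM in siSCM cells at 4 h. The groups did not overlap, and the means of 14641 ± 993 and 18807 ± 1447 (SD, n = 3) differed by a log2 ratio of 0.36 (SE 0.09, adjusted p = 0.0325). The call was lost without siSCM EtOH 4 h replicate 1 or 2 or siSCM TAM 4 h replicate 1 or 2, with an adjusted p of up to 0.161. In siSTAT3 cells the EtOH arrays read 10476, 9428 and 10312 and the TAM arrays 10909, 10405 and 9671, overlapping, with an interaction of -0.32 (95% interval -0.58 to -0.07, adjusted p = 0.474). KRT5, the type II partner, differed by 0.17 (95% interval -0.05 to 0.39, adjusted p = 0.569) in siSCM cells.

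No keratin was called with TAM at 4 h in siSTAT3 cells, where 0.531% of all genes were called higher and 0.288% lower, nor in the interaction at 4 h, where 0.192% were called above 0 and 0.329% below. At an unadjusted p under 0.05, 5 keratins were higher and 0 lower in the first, and 2 were above 0 and 3 below in the second. The medians over keratins and over all genes were 0.11 and -0.02 for TAM, and 0.06 and 0.03 for the interaction.

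KRT75, a type II keratin of the hair follicle companion layer, had the widest log2 differences at 4 h among the 13 keratins. Its siSCM arrays read 138, 211 and 186 units with EtOH and 478, 543 and 509.5 with TAM, and its siSTAT3 arrays 253, 383 and 256 with EtOH and 1006, 903 and 995 with TAM. In both siRNA arms all TAM arrays were above all EtOH arrays. The differences of 1.54 (95% interval 0.62 to 2.46, adjusted p = 0.0858) and 1.73 (95% interval 0.81 to 2.65, adjusted p = 0.103) did not pass the test. The means were 178 ± 36.8 and 510 ± 32.4 units in siSCM cells, and 297 ± 74.7 and 968 ± 56.2 in siSTAT3 cells (SD, n = 3). KRT75 was thus higher with TAM at 4 h in both arms, without a call in either. The fit pools the spread of all groups. Among them, the siSCM EtOH arrays at 24 h ran from 20.1 to 124 units. How far that spread widened the 4 h intervals was not tested. The siSTAT3 difference at 4 h passed with 16 units added before the log, with probe sets under 100 units left out, and with a variance trend and robust prior. By 24 h all KRT75 group means were under 100 units.

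siSTAT3 on its own, in EtOH, changed few keratins, and KRT14 was called at both times. At 4 h KRT23 was called higher and KRT14 lower, each 2.27% of the keratins, beside 1.88% and 2.41% of all genes. At 24 h KRT8 and KRT15 were called higher, 4.55% of the keratins beside 1.40% of all genes, and KRT14 lower, beside 1.46% of all genes. The keratin medians were 0.05 at 4 h and 0.12 at 24 h, and those of all genes -0.04 and 0.01. At an unadjusted p under 0.05, 4 keratins were higher and 4 lower at 4 h, and 4 higher and 3 lower at 24 h.

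KRT14 had 14641 ± 993 units in siSCM and 10072 ± 564 in siSTAT3 cells at 4 h (SD, n = 3), a difference of -0.54 (SE 0.09, adjusted p = 0.00144). At 24 h it had 19925 ± 674 and 12830.3 ± 275, a difference of -0.63 (SE 0.09, adjusted p = 0.000453). The arrays did not overlap at either time, and the calls held with each array left out in turn. KRT5 differed by 0.09 (95% interval -0.13 to 0.30, adjusted p = 0.802) at 4 h and by -0.24 (95% interval -0.46 to -0.02, adjusted p = 0.371) at 24 h, so the basal pair was called for its type I member only, and the difference between both members was not tested.

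KRT8 was higher in siSTAT3 EtOH cells at 24 h by 0.49 (SE 0.10, adjusted p = 0.0155) and KRT15 by 0.58 (SE 0.12, adjusted p = 0.0174). At 4 h KRT8 differed by 0.33 (95% interval 0.12 to 0.55, adjusted p = 0.0944) and KRT15 by 0.08 (95% interval -0.18 to 0.33, adjusted p = 0.855). The KRT8 call at 24 h was lost without siSCM EtOH 24 h replicate 3, siSTAT3 EtOH 24 h replicate 2 or siSTAT3 EtOH 24 h replicate 3, with an adjusted p of up to 0.0879. The KRT15 call was lost without siSCM EtOH 24 h replicate 1 or 2 or any of the 3 siSTAT3 EtOH 24 h arrays, with an adjusted p of up to 0.0805.

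KRT23, a type I keratin, read 77.3, 48.7 and 24.2 units in siSCM and 148, 176 and 205 in siSTAT3 EtOH cells at 4 h. The groups did not overlap, and the difference was 1.96 (SE 0.46, adjusted p = 0.0246), a fitted value since the siSCM arrays were under 100 units. At 24 h it read 29.5, 60.9 and 53.6 and 157, 142 and 120.4, without overlap, and the difference was 1.60 (95% interval 0.63 to 2.57, adjusted p = 0.102). All 11 siSTAT3 arrays, with EtOH or TAM, lay above all 12 siSCM arrays for KRT23. The call at 4 h was lost without siSCM EtOH 4 h replicate 2 or 3 or any of the 3 siSTAT3 EtOH 4 h arrays, with an adjusted p of up to 0.127. KRT80 differed by -0.89 (95% interval -1.40 to -0.38, adjusted p = 0.0541) at 4 h, with 526, 542 and 548 units in siSCM and 290.4, 344 and 246 in siSTAT3 arrays, which did not overlap.

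Keratins also differed between 4 h and 24 h of EtOH, without TAM. In siSCM cells KRT14, KRT15 and KRT222 were higher at 24 h, 6.82% of the keratins beside 6.82% of all genes, and KRT75 and KRT80 were lower, 4.55% beside 5.52%. In siSTAT3 cells KRT13, KRT14, KRT15 and KRT222 were higher, 9.09% beside 8.14%, and KRT75 was lower, 2.27% beside 5.28%. The shares of keratins called were thus close to those of all genes, and the keratin medians of -0.01 and 0.04 were near the medians of 0.02 and 0.06 over all genes. Without adjustment, at p under 0.05, 5 keratins were higher and 4 lower in siSCM cells, and 6 higher and 5 lower in siSTAT3 cells.

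With siSCM, KRT15 rose from 1676 ± 278 to 5109 ± 528 units, and with siSTAT3 from 1753 ± 67.2 to 7587 ± 72.2 (SD, n = 3). The log2 differences were 1.62 (SE 0.12, adjusted p = 3.26e-07) and 2.11 (SE 0.12, adjusted p = 1.64e-08), and both calls held with each array left out. KRT14 rose by 0.45 (SE 0.09, adjusted p = 0.00282) in siSCM and 0.35 (SE 0.09, adjusted p = 0.0135) in siSTAT3 cells, the latter lost without siSTAT3 EtOH 4 h replicate 2 or siSTAT3 EtOH 24 h replicate 3, with an adjusted p of up to 0.0681. KRT222 rose by 0.84 (SE 0.25, adjusted p = 0.0491) and 1.14 (SE 0.25, adjusted p = 0.00738), and its siSCM call, close to the threshold, was kept in 6 of the 23 fits with 1 array left out.

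KRT80 fell from 539 ± 11.6 to 204 ± 17.6 units in siSCM cells (SD, n = 3), a log2 difference of -1.40 (SE 0.24, adjusted p = 0.00103). In siSTAT3 cells it started lower, with 293 ± 49.1 at 4 h and 185 ± 19.5 at 24 h, and the difference of -0.66 (95% interval -1.16 to -0.15, adjusted p = 0.103) was not called. KRT75 was lower at 24 h, with log2 differences of -1.54 (SE 0.43, adjusted p = 0.0338) in siSCM and -1.90 (SE 0.43, adjusted p = 0.00873) in siSTAT3 cells. The siSCM call of KRT75 was lost without siSCM EtOH 4 h replicate 2 or 3, with an adjusted p of up to 0.122, and its value was -0.75 without siSCM EtOH 24 h replicate 3.

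KRT13, a type I keratin of mucosa, read 38.4, 12.4 and 10.8 units at 4 h and 199, 197 and 178 at 24 h in siSTAT3 EtOH cells. The groups did not overlap, and the difference was 3.47 (SE 0.86, adjusted p = 0.0148), lost without siSTAT3 EtOH 4 h replicate 2 or 3, with an adjusted p of up to 0.0645. The 4 h arrays lay under 100 units, where the size of a log2 difference is a fitted value rather than a measured fold. In siSCM cells it read 8.72, 27.5 and 25.4 and 95.1, 59.0 and 112, a difference of 2.23 (95% interval 0.41 to 4.05, adjusted p = 0.134). With TAM at 24 h it read 112, 109 and 89.9 in siSCM and 362 and 322 in siSTAT3 cells, the latter its highest arrays. KRT4, its type II partner, stayed below 100 units in every group. KRT7, KRT8, KRT10, KRT16 and KRT18 were not called between the times in either arm.

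**Figure D3:**
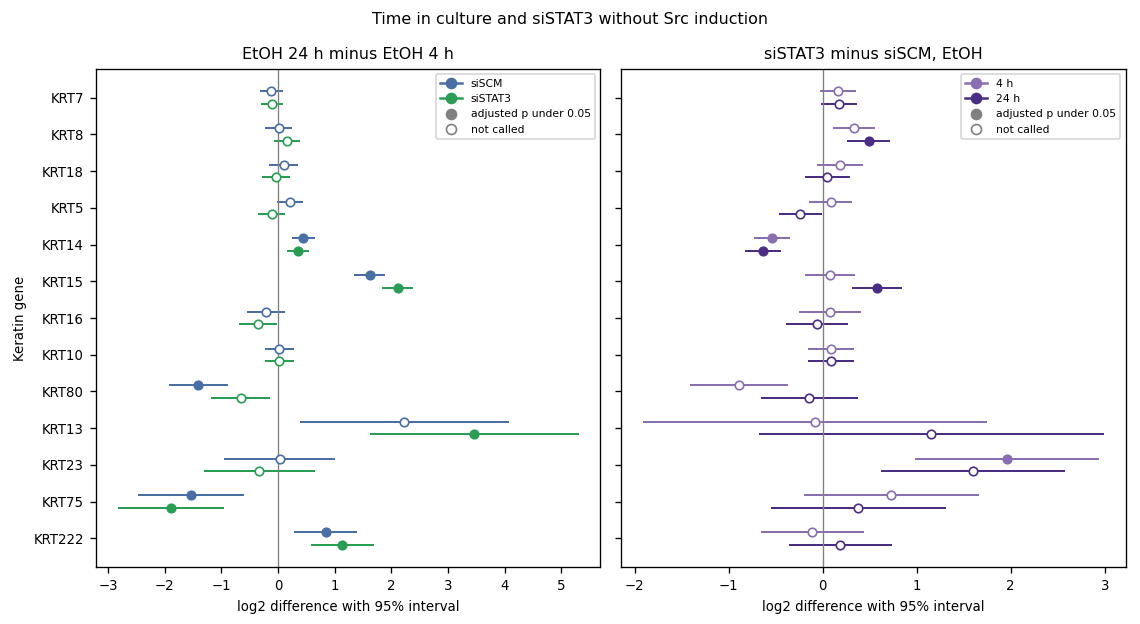
Keratin differences without TAM, for the 13 keratins above 100 units. The horizontal axes are log2 differences with 95% intervals, of EtOH 24 h minus 4 h by siRNA in one panel and of siSTAT3 minus siSCM in EtOH at each time in the other, and filled points have an adjusted p under 0.05. KRT15 stands at 1.62 and 2.11 between the times, and KRT14 at -0.54 and -0.63 between the siRNAs.

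The partner proteins of the keratin network were examined through 26 genes measured of 27 listed, which anchor, bundle or modify keratin filaments or form other intermediate filaments. With TAM at 24 h in siSCM cells 3 rose (EPPK1, MACF1 and ITGB4) and 6 fell (PPL, TGM1, HSPB1, TRIM29, JUP and DST), while 6.06% of all genes were called higher and 9.31% lower, and the median was -0.18 beside -0.04 over all genes. PPL, periplakin, which links keratin filaments to the cell border, fell from 2023 ± 343 to 482 ± 65.2 units (SD, n = 3), a log2 difference of -2.06 (SE 0.12, adjusted p = 3.30e-09). The log2 difference was -1.44 (SE 0.17, adjusted p = 1.53e-05) for TGM1, a transglutaminase of the cornified envelope, -1.34 (SE 0.11, adjusted p = 3.24e-07) for HSPB1, a small heat shock protein, and -1.22 (SE 0.07, adjusted p = 6.27e-09) for TRIM29. Among the 3 that rose, MACF1 went from 2436 ± 26.9 to 5166 ± 107 units (SD, n = 3). ITGB4 went from 1758 ± 86.2 to 2331 ± 101 and EPPK1 from 1370 ± 175 to 1927 ± 38.1.

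With siSTAT3 none of the 26 was called with TAM at 24 h, beside 2.00% of all genes higher and 0.748% lower. The interaction was above 0 for PPL, HSPB1, TGM1, JUP and TRIM29 and below 0 for MACF1, beside 3.42% and 2.49% of all genes, and it uses the same siSCM arrays as the TAM comparison. The values were 1.67 (SE 0.18, adjusted p = 2.05e-05) for PPL, 1.45 (SE 0.17, adjusted p = 5.30e-05) for HSPB1, 1.29 (SE 0.26, adjusted p = 0.00648) for TGM1 and 1.17 (SE 0.15, adjusted p = 0.000130) for JUP, plakoglobin of desmosomes. At 4 h EPPK1, epiplakin, was the 1 network gene called with TAM, higher by 0.48 (SE 0.09, adjusted p = 0.00661) in siSCM and 0.55 (SE 0.09, adjusted p = 0.00867) in siSTAT3 cells, beside 1.67% and 0.531% of all genes called higher, and none was called in the interaction. In EtOH, siSTAT3 raised JUP, MACF1 and HSPB1 and lowered TGM1 at 4 h, beside 1.88% and 2.41% of all genes, and raised JUP at 24 h, beside 1.40%. JUP differed by 0.65 (SE 0.10, adjusted p = 0.00112) and 0.64 (SE 0.10, adjusted p = 0.00181). Between 4 h and 24 h of EtOH 4 genes rose and 3 fell in each siRNA arm, where 6.82% of all genes rose and 5.52% fell with siSCM and 8.14% and 5.28% with siSTAT3. EPPK1 was lower at 24 h, with log2 differences of -1.48 (SE 0.09, adjusted p = 4.28e-08) in siSCM and -1.73 (SE 0.09, adjusted p = 8.16e-09) in siSTAT3 cells.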

How the data were processed

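RNA of 23 samples was measured on Affymetrix U133 Plus 2.0 arrays. The authors corrected background, normalized and summarised the arrays with MAS5, also named in the submitters' processing notes, and deposited intensity values on a linear scale, 1 per probe set and array. The scaling target is not given in the sources used here. Signals were log2 transformed with nothing added, and limma 3.58.1 in R 4.3.3 fitted the 23 arrays with a mean for each group (lmFit and eBayes, 15 residual and 1.27 prior degrees of freedom, two-sided), with Benjamini-Hochberg adjustment over 54675 probe sets. Error terms are the SD of signals, the standard error (SE) of log2 values and 95% intervals. Of the probe sets 41097 have 1 gene symbol, 1801 several and 11777 none, from the platform annotation, and the last 2 kinds were not used. Sequences and positions are those of RefSeq on GRCh38.p14. Precision is limited by how many arrays there are: the mean absolute log2 difference between arrays of 1 group was 0.184 to 0.262 for the 27612 probe sets that reached 100 units in a group, and no pair was identical.

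Keratins with a group mean of at least 100 units are named with values, those below it by name, and array values are given for keratins called in a TAM comparison or interaction. Up to 4 called genes of the filament network, those with the largest absolute change, are given with test values per comparison. Members, role lists and marker lists were chosen with earlier results of these data known. The fitting steps were tested on simulated data, with changes added to probe sets with a mean of at least 100 units. At a log2 change of 1, 78 of 100 were called for TAM at 24 h in siSCM cells and 54 in the 24 h interaction. At a log2 change of 2 these were 100 and 92. A keratin that was not called can therefore hold a 2-fold difference, above all in the interaction. Alternatives were a pseudocount of 16 units, quantile normalization, leaving out probe sets below 100 units, fitting the compared arrays alone, a variance trend with robust prior, the replicate number as a block, the limits of the methods (p under 1e-04 and an absolute log2 above 0.5), other choices of probe set and leaving out each array.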

Additional observations from a re-analysis of the deposited data

Results flagged for a closer look

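The TAM effect at 24 h differed by siRNA for 4 keratins, by the interaction test of limma with adjustment over all probe sets. The interaction was 0.98 for KRT7, 1.42 for KRT8, 3.07 for KRT15 and 1.64 for KRT80 on the log2 scale. In siSCM cells at 24 h all 3 TAM arrays of these 4 keratins were below all EtOH arrays. The same arrays enter the interaction, so this is not separate evidence for it. The interaction of KRT80 was not called with the compared arrays alone, under the limits of the methods, or without siSTAT3 TAM 24 h replicate 3.

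Among the keratins above 100 units, the arrays of KRT5, KRT14 and KRT75 all moved one way with TAM at 4 h and the other way at 24 h under the same siRNA. The share of all genes that do so was not computed, so no excess among keratins can be read from this. In siSCM cells KRT5 and KRT14 were above EtOH at 4 h and below it at 24 h, and the 24 h effect minus the 4 h effect was -0.45 for KRT5 and -0.51 for KRT14. In siSTAT3 cells KRT75 was above EtOH at 4 h and below it at 24 h, where all its groups were under 100 units, and the 24 h effect minus the 4 h effect was -2.10. The TAM effect was called at neither time for KRT5 in siSCM cells and KRT75 in siSTAT3 cells, and for KRT14 in siSCM cells at 4 h only. These 3 differences between the times were not tested.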

How the results depend on the processing

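Of 27 called keratin differences, 17 kept direction and call with each array left out in turn, and no value with a call changed sign under any alternative run. Fitting the compared arrays alone left few residual degrees of freedom and gave 0 keratins higher with TAM at 4 h in siSCM cells (2 in the full fit), 3 lower at 24 h (KRT7, KRT8 and KRT15, of 6), no call for KRT80 in the 24 h interaction, 0 higher and 0 lower for siSTAT3 in EtOH at 4 h and at 24 h, 1 higher and 1 lower between EtOH times in siSCM and 2 higher in siSTAT3 cells. The limits of the methods did not call KRT10 for TAM at 24 h in siSCM cells or KRT80 in the 24 h interaction, and gave 1 higher with TAM at 4 h in siSCM cells (KRT16), 0 higher for siSTAT3 in EtOH at 4 h and 24 h, 1 higher and 1 lower between EtOH times in siSCM, and 1 higher and 0 lower in siSTAT3 cells. Without _s_at and _x_at probe sets, which leaves no probe set for KRT8, KRT10, KRT13, KRT18 or KRT23, 3 were lower with TAM at 24 h in siSCM cells (KRT15, KRT80 and KRT222), 2 were above 0 in the 24 h interaction (KRT15 and KRT80), and siSTAT3 in EtOH gave 0 higher at 4 h, where KRT23 was the call lost, and 1 at 24 h. With 16 units added before the log, KRT75 was 1 keratin higher with TAM at 4 h in siSTAT3 cells, and 2 were lower for siSTAT3 in EtOH at 4 h (KRT14 and KRT80), as they were with the mean of all probe sets of a gene (2). Leaving out probe sets below 100 units, and likewise a variance trend with robust prior, gave 1 higher with TAM at 4 h in siSTAT3 cells (KRT75), 1 below 0 in the 4 h interaction (KRT16), and 2 higher (KRT8 and KRT23) and 2 lower for siSTAT3 in EtOH at 4 h. The first of these also gave 2 lower between EtOH times in siSTAT3 cells. Beyond the alternatives' own construction, the cause of these changes was not tested.

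With each array left out, the count of keratins ran from 1 to 3 higher with TAM at 4 h in siSCM and 0 to 1 in siSTAT3 cells, 5 to 6 lower with TAM at 24 h in siSCM and 0 to 1 higher in siSTAT3 cells, and 3 to 5 above and 0 to 1 below 0 in the 24 h interaction. For siSTAT3 in EtOH it ran from 0 to 1 higher and 1 to 2 lower at 4 h, and 0 to 3 higher and 1 to 1 lower at 24 h. Between EtOH times it ran from 2 to 4 higher and 1 to 2 lower in siSCM, and 2 to 4 higher and 1 to 2 lower in siSTAT3 cells.

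The labels give each group the same replicate numbers, and the main fit did not use the numbers as pairs. Over 77 pairs of 1 number in different groups the median correlation of deviations was 0.0276, with 11 above 0.1. Over 154 pairs of other numbers it was -0.0172, with 9 above 0.1. Deviations were taken from the mean of each small group, which ties both sets of pairs together. These correlations therefore cannot decide whether arrays of 1 number were paired. With the number as a replicate block 1 keratin was higher with TAM at 4 h in siSCM cells (KRT16, not KRT14) and KRT222 was not called between EtOH times in siSCM cells. Signals near or under 100 units gave the widest intervals, those of KRT13, KRT23 and KRT75, which hold 0 and a 2-fold change for TAM at 24 h in siSCM cells.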

Other observations

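A further 53 probe sets carry a symbol that contains KRT but are not keratin genes with a probe set of their own, and 8 of them reached 100 units in a group. Of these 8, 3 were called in a comparison. KRT10-AS1, an antisense RNA gene at the KRT10 locus, had 847 ± 61.4 units with EtOH and 615 ± 15.4 with TAM at 24 h in siSCM cells (SD, n = 3). Its log2 difference was -0.46 (SE 0.10, adjusted p = 0.00406), and that of KRT10 itself -0.46 (SE 0.11, adjusted p = 0.0103). The strand read by its probes was not examined here. In siSTAT3 cells it had 869 ± 22.0 units with EtOH (n = 3) and 837 ± 60.9 with TAM (n = 2), and neither that difference nor the interaction of 0.40 (SE 0.15, adjusted p = 0.174) was called. Probe set 206969_at, assigned to several genes of which 1 is KRT34, a keratin outside the 44, went the other way from the keratins called with TAM at 24 h. In siSCM cells at 24 h its arrays ran from 5.06 to 27.0 units with EtOH, and its mean was 152 ± 11.8 with TAM (SD, n = 3), a log2 difference of 3.96 (SE 0.42, adjusted p = 4.74e-06). The EtOH arrays were far under 100 units, so the size of that difference is a fitted value. In siSTAT3 cells it had 116 ± 28.2 units with EtOH (n = 3) and 610.1 ± 86.7 with TAM (n = 2), a difference of 2.41 (SE 0.47, adjusted p = 0.0119), and the interaction of -1.54 (SE 0.64, adjusted p = 0.258) was not called. In EtOH at 24 h siSTAT3 cells were higher by 3.54 (SE 0.42, adjusted p = 0.000144), and siSCM cells were lower at 24 h than at 4 h, with a log2 difference of -3.01 (SE 0.42, adjusted p = 0.000188). Probe set 1555673_at, assigned to several keratin-associated protein genes, had 29.3 ± 14.9 units with EtOH and 6.65 ± 4.05 with TAM in siSCM cells at 24 h (SD, n = 3), all under 100 units, and 57.7 ± 17.3 (n = 3) and 158 ± 39.1 (n = 2) in siSTAT3 cells. Its TAM difference in siSCM cells was -2.28 (SE 0.65, adjusted p = 0.0308) and its interaction 3.75 (SE 0.98, adjusted p = 0.0396). KRTCAP2, a subunit of the oligosaccharyltransferase and no keratin, was called in none of the 10 comparisons, and neither were the other probe sets of the 8. These probe sets were picked after their values were seen.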
